A study of Mus musculus with 19 samples.

Results

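Fibroblasts grown out of the adult mouse heart were compared with those grown out of 3 other internal organs, the gonad, liver and lung. Samples were chosen by the organ named in their labels, which gave 11 arrays of the 19 samples in the series: 3 of heart, set against 3 of gonad, 3 of liver and 2 of lung. All were fibroblasts of mice 8 to 10 weeks old, with no genetic change or treatment named in the labels. Minced tissue was digested for 40 min with trypsin or collagenase and plated for 5 days in 10% serum, so every group is a primary culture and can hold other cells that attached and grew. The labels give no strain or sex and leave unsaid whether the gonads were ovaries or testes. Nothing ties a replicate to an animal of its own, so p-values measure only the spread between these samples, which may be technical. RNA was labelled with a single dye and hybridised to a whole-genome mouse array, 1 sample per array. For the second lung replicate, scanner output was not used here. The question was how far fibroblasts kept under the same culture conditions still differed between the heart and the other internal organs.

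Fibroblasts are the mesenchymal cells that lay down and remodel the matrix of an organ, and they carry regulators of the embryonic site they came from. Cardiac fibroblasts derive largely from the epicardium, the outer layer of the heart, with Tcf21 as a regulator of that lineage. The Hox genes record position along the trunk, and the heart forms from mesoderm at its front. Secreted BMP antagonists, Wnt ligands and R-spondins are signals by which mesenchyme instructs its neighbours, and smooth muscle genes are raised as fibroblasts turn into contractile myofibroblasts in culture. Type I interferon acts through the transcription factor ISGF3 to raise a large set of antiviral genes, and fibroblasts both make it and respond to it.

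Levels are log2 signal relative to the 75th percentile of the array's probes, so that 0 is the level of that percentile, and a positive difference means higher in heart. The heart mean was set against the unweighted mean of the gonad, liver and lung means, and genes were called in limma at an adjusted p under 0.05 with a difference of 1 (log2) or more. Of 19713 genes tested, 334 were higher in heart (1.69%) and 751 lower (3.81%). Fitted to the 11 arrays alone, which leaves fewer degrees of freedom, the counts were 138 (0.7%) and 343 (1.74%). The heart 1 and gonad 3 arrays stand apart: control spots that should stay dark read 130.7 and 44.6, against 31.8 to 34.9 on the 9 others, and 95.5% and 90.8% of probes were well above background, against 51.2% to 69.3%. By mean level over the 11 arrays, 96.4% of the 4929 dimmest genes read higher on heart 1 than on both heart 2 and heart 3, and 99.8% of the 4928 brightest genes read lower. Differences are therefore also given from a fit without both arrays, called the low-background value. In it 765 genes were higher (3.88%) and 926 lower (4.7%), with 325 and 634 of the calls shared and 0 in the opposite direction. The median difference of all genes was -0.02, and 0.12 in the low-background fit, -0.10 with quantile normalization and 0.20 with median scaling.

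Where every heart array, or every array of 1 of the other organs, was not well above background, the change is a lower bound, written with the words "at least", and a fitted log2 beside it is no bound. A low-background value is followed by such a bound where leaving out heart 1 and gonad 3 left no array of a group well above background. A call is described as lost where an alternative no longer passed it. Where a loss is followed by "among them", the settings and values given there are those from leaving out 1 array. Settings not named there, often the 11-array fit, could lie further from passing. Besides leaving out each array in turn, the settings tried were normexp background correction, quantile normalization and median scaling. Other rules for dim genes and for several probes of a gene were tried, as was the 11-array fit. Heart 1 and gonad 3 were left out of fits of 16 arrays, of 13, and of the 9 of this comparison. The 16-array fit gave the low-background values. It kept kidney 1, kidney 2 and tail 2, also high-background arrays, in its estimate of spread. The 13-array fit left these out as well. The remaining settings were slide or replicate number as a block, a variance trend, the deposited value table, and pooling of the 8 other arrays. The gene lists were read by their counts beside these shares and by their medians. The arrays were run on 3 slides that held several organs each. Heart 2 was on slide 1, heart 1 on slide 2, and heart 3 on slide 3 together with gonad 3. A value within a slide therefore rests on a single heart array, and on slide 2 the slide cannot be told apart from heart 1. Of the 1085 genes called, 1085, 1077 and 1083 kept their direction within slides 1, 2 and 3, and slide 3 held no lung array. These genes were called from the same arrays, so the selection favours such agreement and it is no separate check of the slides. With slide as a block 301 genes were higher and 680 lower. Fewer cells of a type and less RNA per cell cannot be told apart in these cultures.

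The labelled cell type was checked against fibroblast markers. Summed over 21 of them, the signal was 488, 2306 and 2296 times the 75th percentile on heart arrays 1, 2 and 3, and 1414 to 2041 on the 8 others. The collagen genes Col1a1, Col1a2 and Col3a1 were among the bright genes of every array, with Col1a1 at 5.20 to 7.23 on heart arrays, against 6.83 to 7.14 on the 8 others. Their differences were -0.43, -0.50 and 0.06, and none passed.

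**Figure D1:**
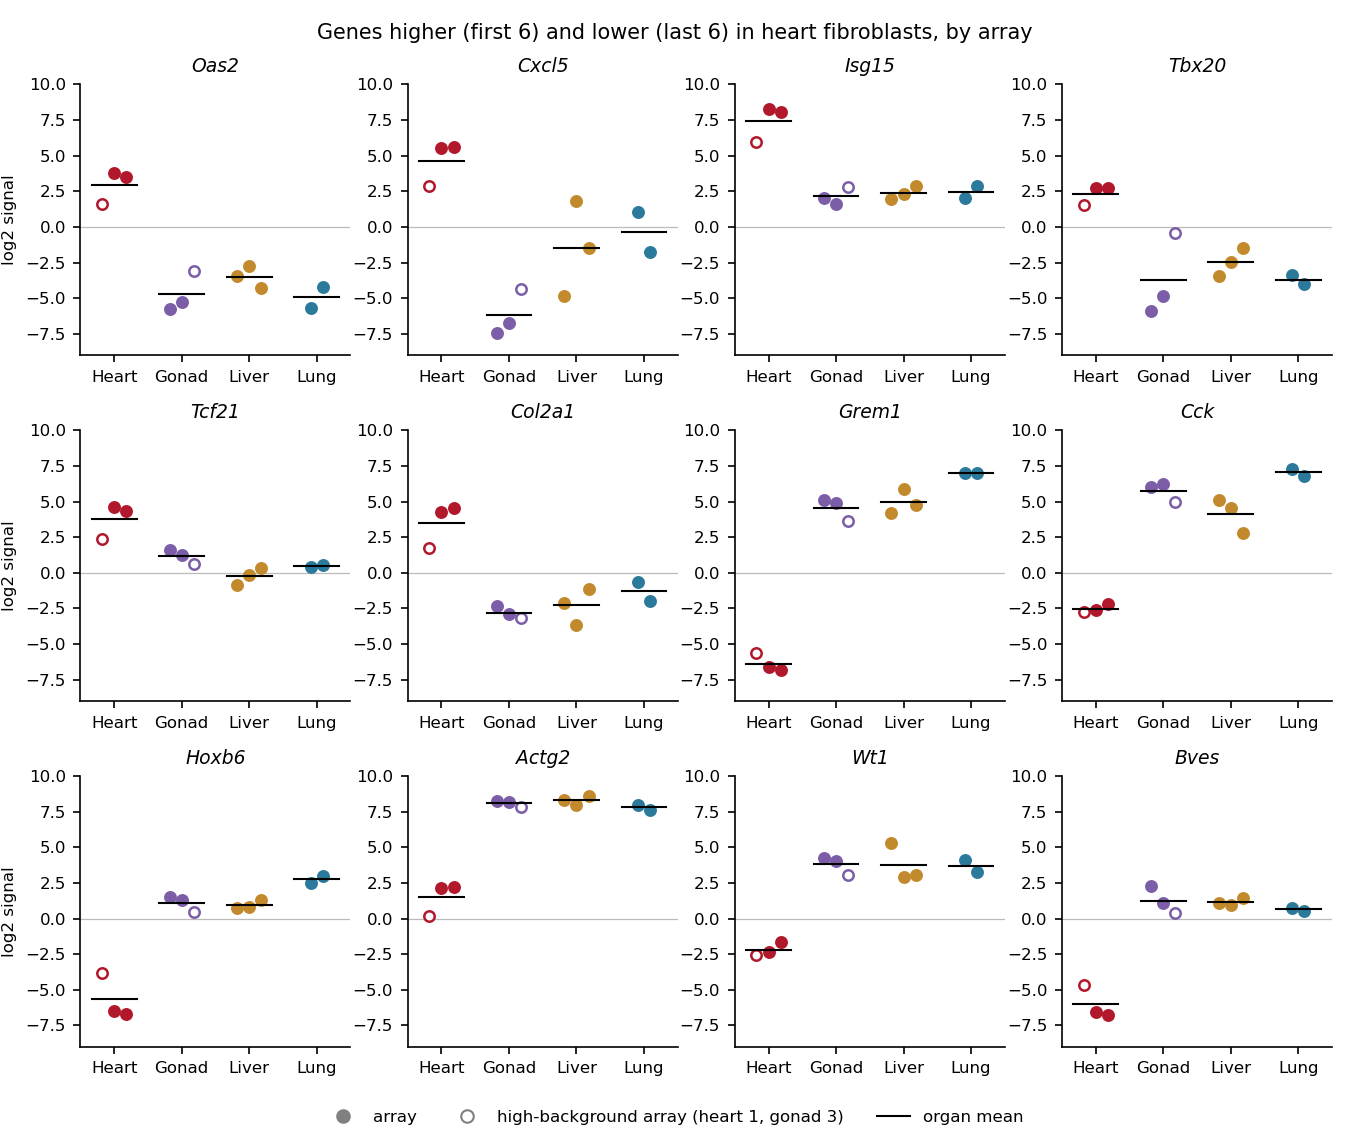
Log2 signal relative to the array's 75th percentile (vertical axis) of 6 genes called higher and 6 called lower in heart, by organ, with 1 point per array and a line at the organ mean. Open points are the high-background arrays heart 1 and gonad 3. The 3 heart arrays lie on one side of the 8 others in each panel, from Grem1 at -5.66, -6.64 and -6.81 to Isg15 at 5.98, 8.27 and 8.09.

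Interferon-stimulated genes were higher in heart cultures. Of 26 antiviral effectors measured of 30 listed, 25 were higher and 0 lower, with a median difference of 4.26 (log2), and 26 and 0 with a median of 4.93 in the low-background fit. In 21 of them all heart arrays lay above all 8 others, which held for 1.41% of all genes. The median over the list on each array was 1.80, 3.91 and 3.64 on heart arrays 1, 2 and 3, against -2.16 to -0.51 on gonad, -1.72 to -1.12 on liver and -1.24 to -0.76 on lung arrays. Within slides 1, 2 and 3 the median difference was 4.98, 3.78 and 3.93.

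Oas2 encodes an oligoadenylate synthetase, an enzyme that senses double-stranded RNA and activates RNase L. It read 1.61, 3.78 and 3.50 on heart arrays 1, 2 and 3, against -5.78, -5.30 and -3.07 on gonad arrays 1, 2 and 3, -3.44, -2.77 and -4.32 on liver arrays 1, 2 and 3, and -5.70 and -4.19 on lung arrays 1 and 3. All heart arrays were above all others, and no lung array was well above background. Oas2 was at least 159.5-fold higher (log2 7.35 ± 0.68, adjusted p = 2.2e-05), and at least 292-fold higher (log2 8.30, adjusted p = 5.3e-06) in the low-background fit. Its relatives Oas1a (log2 7.10, adjusted p = 3.9e-05, low-background log2 8.05) and Oas1f (log2 5.50, adjusted p = 0.00021, low-background log2 6.47) were higher as well, though near-identical copies in this cluster may share signal. Zbp1, a sensor of Z-form nucleic acid that can trigger necroptosis, read 2.17, 4.31 and 3.85 on heart arrays, against -5.58 to -1.85 on the others (log2 6.73, adjusted p = 3.2e-05, low-background log2 7.62, at least 186-fold).

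Isg15, a ubiquitin-like protein joined to other proteins during the interferon response, was bright on every array and read 5.98, 8.27 and 8.09 on heart arrays, against 2.02, 1.61 and 2.79 on gonad, 2.0, 2.34 and 2.85 on liver and 2.04 and 2.88 on lung arrays. The lowest heart value, on heart 1, was above the highest of the others, and the difference was log2 5.11 ± 0.51, adjusted p = 4.2e-05 (low-background log2 5.96). Usp18, the protease that removes ISG15 and damps the interferon receptor, differed by log2 5.58 ± 0.50, adjusted p = 1.8e-05 (low-background log2 6.43). The tetratricopeptide genes Ifit3 (log2 5.41 and low-background 6.23), Ifit3b (log2 5.48 and low-background 6.35) and Ifit1 (log2 4.60 and low-background 5.40) were higher by similar amounts, and Ifit3 and Ifit3b are near-identical copies whose probes may share signal. Ifit2 differed less (log2 1.22 and low-background 1.55). The Ifit2 call was lost in 5 of 27 alternatives, among them without heart 2 or heart 3 (log2 1.01 to 1.09, adjusted p = 0.058 to 0.069). The Ifit2 difference was furthest from passing with normexp (log2 0.55, adjusted p = 0.33) and quantile normalization (log2 0.58, adjusted p = 0.45). Rsad2, which encodes the antiviral enzyme viperin, read -0.41 to 1.42 on heart arrays, against -5.56 to -1.76 on the 8 others (log2 4.55, adjusted p = 0.0013, low-background log2 5.49, at least 43.7-fold). Bst2, or tetherin, which holds budding virus at the cell surface, was higher (log2 4.10, adjusted p = 9.2e-05, low-background log2 4.85).

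The sensors of viral RNA showed unequal sizes. Ifih1, for the sensor MDA5, was higher (log2 3.39 and low-background 4.09) and so was Dhx58, for LGP2 (log2 4.22 and low-background 4.81). Ddx58, which encodes RIG-I and was bright in all organs, read 3.07 to 5.06 on heart arrays, against 2.30 to 2.81 on the 8 others (log2 1.75 and low-background 2.36). The Ddx58 call was lost in 3 of 27 alternatives, among them without heart 2 or heart 3 (log2 1.40 to 1.45, adjusted p = 0.063 to 0.065). The member that did not pass was Ifi35, at log2 1.24 with adjusted p = 0.085. Its low-background value was log2 1.69 with adjusted p = 0.00026.

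Interferon itself and its signalling chain moved less as a list. Of 22 measured members, 6 were higher and 1 lower, with a median of 0.10. In the low-background fit the counts were 7 and 1 and the median 0.71. The median was below 0 without heart 2, without heart 3 or with only genes well above background on all 11 arrays. Irf7, the factor that amplifies interferon transcription, read 2.36, 3.99 and 3.72 on heart arrays, against -2.32, -2.03 and -0.82 on gonad, -1.97, -1.96 and -1.44 on liver and -1.59 and -1.31 on lung arrays. Its groups did not overlap, and the difference was log2 5.01 ± 0.42, adjusted p = 9.1e-06 (low-background log2 5.66). Ifnb1, the interferon beta gene, was well above background on all 3 heart arrays at -1.59, -2.0 and -4.18, on 1 gonad array, gonad 3, at -2.93, and on no liver or lung array. It was at least 6.59-fold higher (log2 3.75 ± 0.86, adjusted p = 0.018) and at least 4.14-fold higher in the low-background fit (log2 3.73, adjusted p = 0.0021). The Ifnb1 call was lost in 4 of 26 alternatives, among them without heart 1 or heart 2 (log2 3.25 to 3.45, adjusted p = 0.074).

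Stat2 and Irf9, which encode components of the interferon response factor ISGF3, were higher, Stat2 (log2 2.44 and low-background 3.22) and Irf9 (log2 1.69 and low-background 2.36). The Irf9 call was lost in 3 of 27 alternatives, among them without heart 2 or heart 3 (log2 1.32 to 1.41, adjusted p = 0.068 to 0.071). Tlr3, a receptor for double-stranded RNA, was at least 3.72-fold higher (log2 2.42 ± 0.51, adjusted p = 0.012) from a low level of -4.07, -3.20 and -2.36 on heart arrays. The Tlr3 call was lost in 7 of 26 alternatives, among them without heart 3 (log2 1.99, adjusted p = 0.072). With normexp Tlr3 differed by log2 0.51 (adjusted p = 0.32) and with quantile normalization by log2 1.03 (adjusted p = 0.45). Ifngr2, a chain of the interferon gamma receptor, was lower (log2 -1.84 and low-background -1.28). The Ifngr2 call was lost in 1 of 27 alternatives, namely the 11-array fit. The receptor chain genes Ifnar1, Ifnar2 and Ifngr1 and the kinase genes Jak1 and Tyk2 did not pass, with differences of -0.91, -0.22, 0.14, 0.02 and -0.19.

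Of 10 interferon-induced GTPases, which attack vacuoles of intracellular microbes, 6 were higher and 0 lower (median 3.39), and 10 and 0 in the low-background fit (median 3.94). The median was 2.04 with normexp. Gbp3, a guanylate-binding protein, read 2.30, 4.46 and 4.0 on heart arrays, against -2.10, -1.72 and -0.97 on gonad, -1.49, -0.27 and -1.10 on liver and -1.42 and -0.89 on lung arrays and differed by log2 4.82 ± 0.47, adjusted p = 3.8e-05 (low-background log2 5.57). Higher as well were Igtp (log2 3.85 and low-background 4.60), Gbp7 (log2 3.66 and low-background 4.11), Iigp1 (log2 3.53 and low-background 3.87) and Irgm2 (log2 3.26 and low-background 4.01). Gbp5 was higher (log2 3.80 and low-background 4.66). The Gbp5 call was lost in 4 of 26 alternatives, among them without heart 2 or heart 3 (log2 3.41 to 3.55, adjusted p = 0.052 to 0.057). With normexp Gbp5 differed by log2 1.59 (adjusted p = 0.07) and with quantile normalization by log2 2.36 (adjusted p = 0.15). Tgtp1, Gbp6, Irgm1 and Gbp2 had differences of 2.39, 1.68, 1.29 and 1.26 and did not pass with heart 1 and gonad 3 included.

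Genes of MHC class I antigen presentation differed by smaller amounts. Of 16 measured members, 8 were higher and 0 lower (median 1.61), and 13 and 0 in the low-background fit (median 1.80). In the 11-array fit 4 were higher and 0 lower. Nlrc5, the transactivator of class I genes, was higher (log2 4.50, adjusted p = 0.0009, low-background log2 5.34). The immunoproteasome subunits Psmb9 (log2 3.34, adjusted p = 6.1e-05, low-background log2 3.90) and Psmb8 (log2 3.27, adjusted p = 0.00023, low-background log2 3.90) and the peptide transporter Tap1 (log2 2.35, adjusted p = 0.0011, low-background log2 2.80) followed in size. Psmb9 read 0.54, 2.02 and 1.79 on heart arrays, against -2.42, -2.65 and -1.61 on gonad, -1.46, -1.15 and -2.03 on liver and -1.77 and -2.05 on lung arrays, with no overlap. The heavy chain genes H2-D1 (log2 2.05 and low-background 2.67), H2-K1 (log2 1.97 and low-background 2.69) and H2-T23 (log2 2.03 and low-background 2.65) were bright in all organs. The H2-K1 call was lost in 3 of 27 alternatives, among them without heart 2 or heart 3 (log2 1.58 to 1.64, adjusted p = 0.07 to 0.073), and those of H2-D1 and H2-T23 were lost in the 11-array fit alone. Heavy chain genes are close copies whose probes may share signal. B2m, the light chain, read 5.24 to 7.38 on heart arrays, against 5.65 to 6.44 on the 8 others and did not pass (0.66), with a low-background difference of 1.31 and adjusted p = 0.0018.

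**Figure D2:**
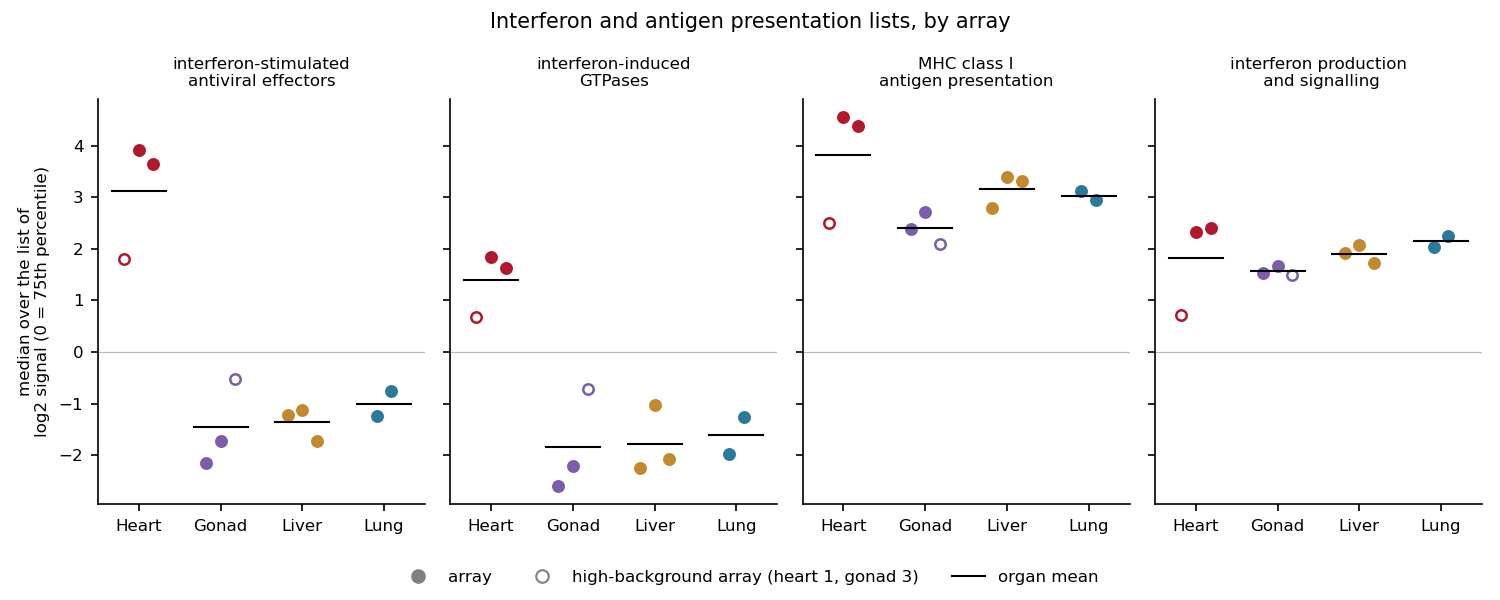
Median over each list of the log2 signal relative to the array's 75th percentile (vertical axis), by organ, with 1 point per array and a line at the organ mean. Open points are heart 1 and gonad 3. For the antiviral effectors the heart arrays lie at 1.80 to 3.91 and the 8 others at -2.16 to -0.51, while for interferon production and signalling the heart arrays lie on both sides of the others.

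The interferon-stimulated response element is the sequence that ISGF3 binds, and its core can be written GAAANNGAAA. In windows of 300 bases, from 250 bases before to 50 bases after each gene start (RefSeq, GRCm38.p6), this core was searched on both strands with overlapping matches counted. It was present in 528 of 15621 tested genes with a window (3.38%), in 47 of 245 genes higher in heart (19.2%) and in 15 of 559 lower (2.68%). Among the lists it was present in 11 of 20 antiviral effectors, 8 of 8 GTPases and 4 of 13 class I genes. These are matches of letters, not measured binding.

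The windows of 4 genes that were higher in heart are shown 5′ to 3′ along the gene, with the core or its reverse complement in capitals, because they show how the element lies shortly before the start. In Oas1a, at chr5:120907476-120907775 on the - strand, there were 2 matches, and the first base of the first lay at position 231 of the window. In Isg15, at chr4:156200769-156201068 on the - strand, there were 3 matches, and the first base of the first lay at position 173 of the window. For Ifit3, at chr19:34583279-34583578 on the + strand, there were 2 matches, and the first base of the first lay at position 95 of the window. In Gbp3, at chr3:142559794-142560093 on the + strand, there were 2 matches, and the first base of the first lay at position 206 of the window.
Oas1a: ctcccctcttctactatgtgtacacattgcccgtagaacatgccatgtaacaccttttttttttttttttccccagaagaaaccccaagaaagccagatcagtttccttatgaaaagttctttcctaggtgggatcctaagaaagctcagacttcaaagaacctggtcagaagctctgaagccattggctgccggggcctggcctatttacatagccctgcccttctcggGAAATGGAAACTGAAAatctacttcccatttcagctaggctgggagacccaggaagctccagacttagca
Isg15: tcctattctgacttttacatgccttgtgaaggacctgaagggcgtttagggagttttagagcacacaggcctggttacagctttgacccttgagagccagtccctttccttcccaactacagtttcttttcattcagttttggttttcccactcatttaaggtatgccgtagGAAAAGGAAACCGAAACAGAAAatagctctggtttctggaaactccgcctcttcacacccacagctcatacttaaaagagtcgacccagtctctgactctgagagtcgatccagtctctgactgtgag
Ifit3: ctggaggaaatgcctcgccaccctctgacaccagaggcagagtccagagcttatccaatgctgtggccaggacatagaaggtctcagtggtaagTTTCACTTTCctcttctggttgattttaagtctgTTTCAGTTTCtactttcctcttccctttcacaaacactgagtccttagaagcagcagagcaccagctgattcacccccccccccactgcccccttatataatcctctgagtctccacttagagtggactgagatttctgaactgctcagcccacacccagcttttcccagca
Gbp3: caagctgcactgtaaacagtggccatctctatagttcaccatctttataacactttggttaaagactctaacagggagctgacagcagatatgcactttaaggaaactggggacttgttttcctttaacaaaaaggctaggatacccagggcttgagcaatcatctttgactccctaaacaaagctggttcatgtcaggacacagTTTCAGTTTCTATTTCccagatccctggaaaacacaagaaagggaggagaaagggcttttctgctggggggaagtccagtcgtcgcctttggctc

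The largest difference of all was in Grem1, which encodes gremlin 1, a secreted antagonist that binds BMP ligands and keeps them from their receptors. Grem1 read -5.66, -6.64 and -6.81 on heart arrays 1, 2 and 3, against 5.09, 4.89 and 3.66 on gonad arrays 1, 2 and 3, 4.19, 5.91 and 4.76 on liver arrays 1, 2 and 3, and 6.98 and 6.98 on lung arrays 1 and 3. No heart array was well above background, while all 8 others were bright. Grem1 was at least 1118-fold lower in heart (log2 -11.87 ± 0.43, adjusted p = 7.2e-09), and at least 1134-fold lower in the low-background fit (log2 -12.37, adjusted p = 3.3e-08). The fitted difference was -10.92 against gonad, -11.32 against liver and -13.35 against lung, and over 26 alternatives it ran from -12.37 to -8.61, the smallest with normexp and its offset.

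Follistatin, encoded by Fst and an antagonist of activin, was bright in all organs but lower in heart, at 0.30 to 2.36 on heart arrays, against 4.64 to 5.61 on the 8 others (log2 -3.49, adjusted p = 8.1e-05, low-background log2 -2.79). Bmper, a modulator of BMP activity, was lower by less (log2 -2.0 and low-background -1.31). The Bmper call was lost in 1 of 27 alternatives, namely the 11-array fit. Over the list, 0 of 15 measured members were higher and 4 lower (3.81% of all genes were lower), the median was -0.43, and the other 11 did not pass. Nog, Chrd and Twsg1, for noggin, chordin and twisted gastrulation, had differences of 0.28, 0.36 and -0.21 and did not pass.

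Of 12 BMP and activin ligands, 3 were higher and 0 lower (median 0.37; low-background counts 3 and 0, median 0.09). They were Inhbb, a subunit of activin (log2 2.20, adjusted p = 0.018, low-background log2 2.93), Gdf6, a ligand of joint and skeletal development (log2 2.06, adjusted p = 0.022, low-background log2 2.81), and Bmp6 (log2 1.88, adjusted p = 0.036, low-background log2 2.45). Against the organs singly, the higher calls on this list were 0 for gonad, 0 for liver and 3 for lung, beside 1.47%, 1.21% and 0.883% of all genes. For no member did all heart arrays lie above all the others. As this held for only 1.41% of all genes, 0 of 12 says little about the list. Bmp6 differed by 1.00 against gonad, 1.04 against liver and 3.62 against lung, so that lung was the organ furthest from heart. The Inhbb call was lost in 5 of 27 alternatives, among them without heart 2, heart 3 or lung 3 (log2 1.78 to 2.10, adjusted p = 0.053 to 0.091). The Gdf6 call was lost in 5 of 27 alternatives, among them without heart 2, heart 3 or lung 3 (log2 1.56 to 1.92, adjusted p = 0.065 to 0.11). The Bmp6 call was lost in 10 of 27 alternatives, among them without gonad 1, heart 2, heart 3, liver 1, liver 3 or lung 3 (log2 1.53 to 1.91, adjusted p = 0.054 to 0.13). Bmp2 and Bmp4, the ligands gremlin is best known to bind, had differences of -0.50 and -1.10 and did not pass.

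Among Wnt ligands and R-spondins, 0 of 16 measured members were higher and 4 lower (median -0.56; low-background counts 0 and 6, median -1.12). Rspo1, which raises Wnt signalling by sparing its receptors, read -1.81, -2.32 and -2.03 on heart arrays, against 3.08, 2.42 and 1.84 on gonad, 3.13, 1.71 and 2.45 on liver and 2.51 and 1.98 on lung arrays. All heart arrays were below all others (log2 -4.43 ± 0.35, adjusted p = 6.6e-06). Wnt4, known for its roles in kidney and gonad development, was lower (log2 -3.12, adjusted p = 0.00078, low-background log2 -3.14), with differences of -2.98 against gonad, -5.05 against liver and -1.34 against lung. Rspo3 was lower on average (log2 -2.43, adjusted p = 0.018, low-background log2 -2.80). It differed by 0.88 against gonad, -3.30 against liver and -4.85 against lung, so the heart did not lie below gonad. The Rspo3 call was lost in 5 of 27 alternatives, among them without heart 2 or heart 3 (log2 -2.23 to -2.02, adjusted p = 0.075 to 0.095). The Wnt5a difference (log2 -1.68, adjusted p = 0.04, low-background log2 -1.13) was lost in 13 of 27 alternatives, among them without gonad 1, gonad 2, heart 1, liver 1, liver 3, lung 1 or lung 3 (log2 -1.71 to -1.08, adjusted p = 0.057 to 0.13).

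Of 12 Wnt antagonists, 2 were higher and 1 lower. Frzb, a secreted frizzled-related protein first known from cartilage, read 2.48, 4.69 and 4.53 on heart arrays, against -0.03, 0.04 and -0.81 on gonad, 0.66, 0.60 and 0.45 on liver and 0.17 and -0.58 on lung arrays. Its groups did not overlap (log2 3.87 ± 0.43, adjusted p = 0.0001, low-background log2 4.49). Sfrp1, of the same family, was also higher (log2 2.20, adjusted p = 0.0084, low-background log2 2.92). The Sfrp1 call was lost in 3 of 27 alternatives, among them without heart 2 or heart 3 (log2 1.82 to 1.85, adjusted p = 0.054 to 0.057). Dkk3, a divergent Dickkopf, was lower at 0.37 to 1.69 on heart arrays, against 3.24 to 5.51 on the 8 others (log2 -3.04, adjusted p = 0.00018, low-background log2 -2.66).

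Hox genes were lower in heart from groups 1 to 8. In groups 1 to 4, 8 of 12 measured genes were lower and 0 higher (median -2.69; low-background counts 0 and 9, median -3.20). In groups 5 to 8, 7 of 10 were lower and 0 higher (median -4.98; low-background counts 0 and 7, median -6.35), against 3.81% of all genes. Within slides 1, 2 and 3 the medians were -3.05, -1.78 and -3.12 for groups 1 to 4 and -6.22, -2.03 and -5.31 for groups 5 to 8. Limited to genes well above background on all 11 arrays, groups 5 to 8 gave 1 gene lower and a median of -0.75, as most members were not well above background on every array.

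Hoxb6 showed the largest Hox difference and read -3.85, -6.46 and -6.70 on heart arrays 1, 2 and 3, against 1.50, 1.30 and 0.49 on gonad arrays 1, 2 and 3, 0.76, 0.82 and 1.34 on liver arrays 1, 2 and 3, and 2.52 and 3.0 on lung arrays 1 and 3. Within heart it was well above background only on heart 1, and it was well above background on all 8 others. The fitted difference was log2 -7.28 ± 0.49, adjusted p = 2.2e-06, and without heart 1 and gonad 3 the gene was at least 74.4-fold lower (log2 -8.29, adjusted p = 4.4e-09). Its neighbour Hoxb7 behaved alike, at -6.71 to -3.97 on heart arrays, against 0.00 to 2.04 on the 8 others (log2 -6.83 ± 0.49, adjusted p = 2.7e-06; at least 52.1-fold lower in the low-background fit). Hoxc6 read -3.05, -6.72 and -4.35 on heart arrays, against 4.01, 3.97 and 3.56 on gonad, -0.05, -1.85 and 0.27 on liver and 0.65 and -0.59 on lung arrays, with its highest level in gonad (log2 -5.82 ± 0.64, adjusted p = 9.3e-05). Hoxa5 (log2 -5.24, adjusted p = 0.00098, low-background log2 -6.78, at least 25.3-fold) and Hoxb5 (log2 -5.02, adjusted p = 0.00049, low-background log2 -6.42, at least 28.7-fold), which act in lung development, were highest in lung, where the differences were -6.48 and -6.48.

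Hoxa3 was the anterior gene furthest apart, at -4.24, -3.94 and -3.27 on heart arrays, against 0.76, 0.56 and 0.56 on gonad, 3.42, 2.77 and 2.48 on liver and 3.11 and 3.18 on lung arrays. It was well above background on all heart arrays, and its difference was log2 -6.03 ± 0.31, adjusted p = 1.7e-07, -4.44 against gonad, -6.70 against liver and -6.96 against lung. Hoxc4 (log2 -4.15, adjusted p = 6.7e-05, low-background log2 -4.96) and Hoxa4 (log2 -3.79, adjusted p = 0.002, low-background log2 -4.80, at least 7.39-fold) were lower. Hoxb2, Hoxb3 and Hoxb4 were lower as well (log2 -2.40, -2.99 and -3.30). The Hoxb4 call was lost in 1 of 27 alternatives, namely the value table. Hoxa2 was lower (log2 -3.34, adjusted p = 0.027, low-background log2 -4.70, at least 9.26-fold). The Hoxa2 call was lost in 7 of 26 alternatives, among them without heart 2, heart 3, lung 1 or lung 3 (log2 -3.38 to -2.25, adjusted p = 0.058 to 0.12).

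In groups 9 to 13 the picture depended on heart 1. Of 14 genes 1 was lower and 0 higher with a median of 0.62, and in the low-background fit 5 were lower and 0 higher with a median of -0.69. The gene called in both was Hoxb9 (log2 -3.81, adjusted p = 0.0037, low-background log2 -4.59, at least 6.75-fold), with differences of -5.90 against gonad, -2.39 against liver and -3.14 against lung. The Hoxb9 call was lost in 1 of 26 alternatives, namely normexp. Genes called lower in the low-background fit and not with both arrays included were Hoxd9, Hoxc9, Hoxd10 and Hoxc13, at -3.15, -2.98, -3.0 and -1.93 (log2), with bounds of at least 3.5, 3.81, 3.25 and 3.15-fold. Against the organs singly, the genes called lower than in gonad numbered 5 of 14, with 0 for liver and 0 for lung, beside 3.16%, 2.8% and 1.98% of all genes.

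**Figure D3:**
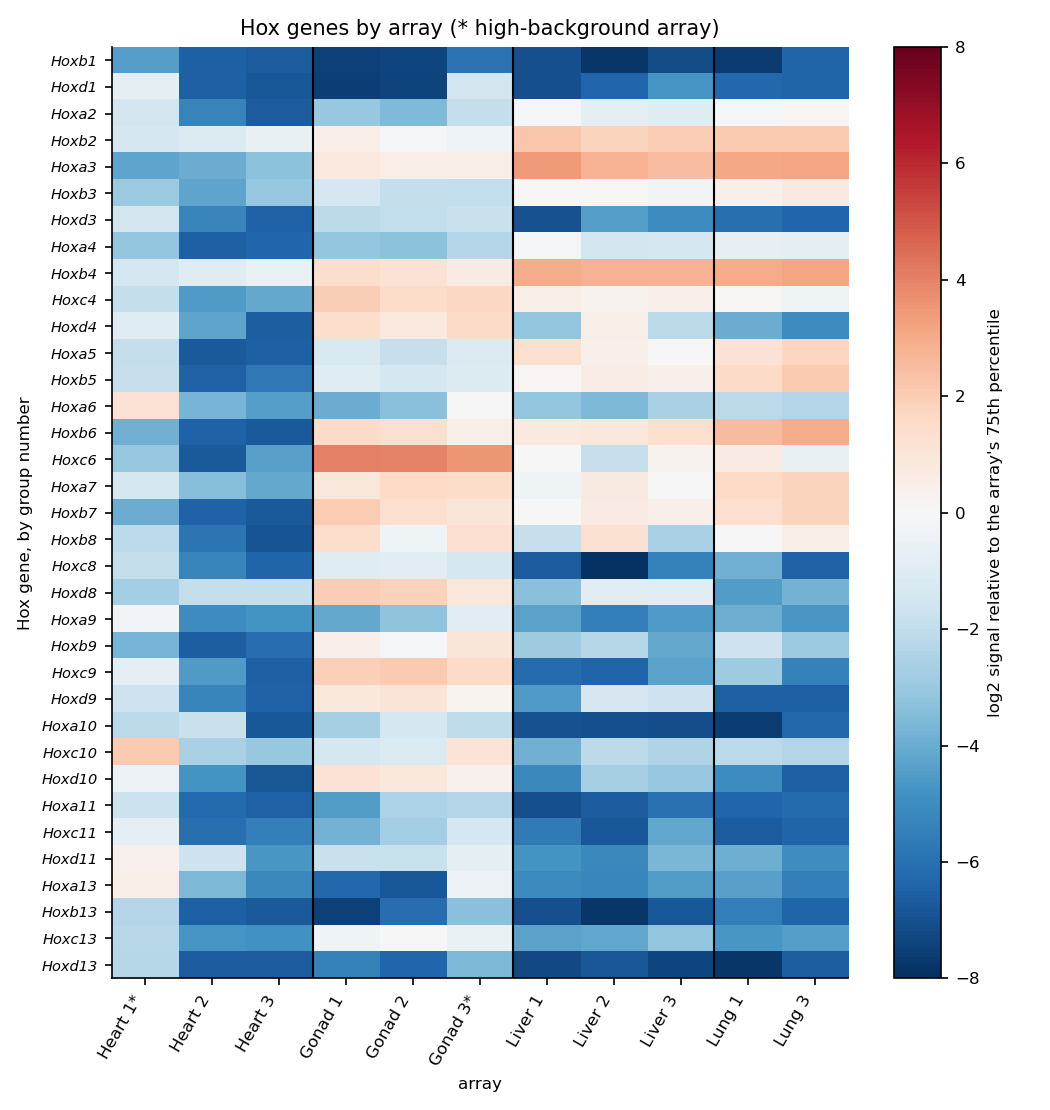
Log2 signal of 35 Hox genes (rows, by group number) on the 11 arrays (columns, heart at left), coloured from -8 (blue) to 8 (red) relative to the array's 75th percentile. In groups up to 8 most rows are bluer on heart 2 and 3 than in gonad, liver and lung, with Hoxb6 at -6.46 and -6.70, and heart 1 is paler than heart 2 and 3 in most dim rows.

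Contractile and smooth muscle genes were lower in heart. Of 20 measured, 11 were lower and 0 higher (median -2.17), and 12 and 0 in the low-background fit (median -1.57), where the all-gene median was 0.12. In 15 of 20 all heart arrays lay below all 8 others, against 4.16% of all genes. Within slides 1, 2 and 3 the median was -1.44, -3.12 and -1.40.

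Actg2, the gamma actin of visceral smooth muscle, read 0.17, 2.14 and 2.18 on heart arrays 1, 2 and 3, against 8.28, 8.17 and 7.84 on gonad arrays 1, 2 and 3, 8.29, 7.97 and 8.61 on liver arrays 1, 2 and 3, and 7.95 and 7.66 on lung arrays 1 and 3. It was well above background on every array and bright in the other 3 organs (log2 -6.56 ± 0.42, adjusted p = 1.3e-06, low-background log2 -5.94). Against the organs singly it differed by -6.59 against gonad, -6.79 against liver and -6.30 against lung. Cnn1, or calponin, an actin-binding protein of smooth muscle, showed the same order at 1.17, 3.19 and 2.91 on heart arrays, against 8.33, 8.17 and 7.86 on gonad, 8.28, 7.89 and 8.42 on liver and 8.14 and 8.06 on lung arrays (log2 -5.72 ± 0.40, adjusted p = 2.7e-06, low-background log2 -5.13). Myh11, the smooth muscle myosin heavy chain, read -4.20 to -1.49 on heart arrays, against 2.52 to 4.12 on the 8 others (log2 -5.98, adjusted p = 8.6e-06, low-background log2 -6.76). Mylk, the kinase that switches on that myosin, read -2.24 to -1.36 on heart arrays, against 3.27 to 4.93 on the 8 others (log2 -5.67, adjusted p = 1.6e-07, low-background log2 -5.48). Des, or desmin, read -2.80 to 0.62 on heart arrays, against 0.92 to 3.68 on the 8 others (log2 -4.09, adjusted p = 0.0017, low-background log2 -5.23).

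Smaller differences were found for Itga8, the alpha 8 integrin (log2 -3.75 and low-background -3.04), and for Tpm1 (log2 -2.80 and low-background -2.22), Nexn (log2 -2.27 and low-background -1.60) and Myl9 (log2 -2.26 and low-background -1.55). The Itga8 call was lost in 1 of 27 alternatives, namely the value table. Tpm2 differed (log2 -2.09 and low-background -1.47). The Tpm2 call was lost in 1 of 27 alternatives, namely the 11-array fit. Acta2, the alpha actin by which myofibroblasts are usually recognised, did not pass. It read 6.58, 8.81 and 8.66 on heart arrays, against 9.44, 9.42 and 9.22 on gonad, 9.19, 9.12 and 9.46 on liver and 9.20 and 9.27 on lung arrays, a difference of -1.27 ± 0.41 with adjusted p = 0.1, and -0.57 in the low-background fit. Tagln, its frequent companion, differed by -1.08 (low-background -0.37) and did not pass. Myocd, the coactivator of smooth muscle genes, did not pass either (-0.61). A CArG box, the sequence to which serum response factor binds, was searched by its consensus in the same windows on both strands. It was present in 237 of 15621 tested genes (1.52%), 3 of 245 higher in heart, 23 of 559 lower (4.11%) and 2 of 15 on this list.

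Mesothelium is the sheet that covers the inner organs and lines the body cavities, and the epicardium is its counterpart on the heart. Of 15 markers of these layers, 10 were lower in heart and 1 higher (median -4.43; low-background counts 2 and 10, median -4.65). Within slides 1, 2 and 3 the median was -5.57, -2.93 and -3.81. Their summed signal was 24.9, 99.9 and 88.7 on heart arrays 1, 2 and 3, against 39.9 to 71.2 on gonad, 45.3 to 181 on liver and 112 to 195 on lung arrays. Gpm6a was the only marker of the list not well above background on any heart array. That count includes heart 1, where 95.5% of probes were well above background, so it says little about dim markers. Upk1b, for example, was well above background within heart only on heart 1.

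Wt1, a transcription factor of mesothelium, epicardium and gonad, read -2.57, -2.32 and -1.63 on heart arrays 1, 2 and 3, against 4.24, 4.07 and 3.08 on gonad arrays 1, 2 and 3, 5.32, 2.93 and 3.06 on liver arrays 1, 2 and 3, and 4.15 and 3.25 on lung arrays 1 and 3. The heart values lay far below all others (log2 -5.93 ± 0.57, adjusted p = 3.5e-05), and the difference was -5.97 against gonad, -5.94 against liver and -5.87 against lung. Gpm6a, a membrane glycoprotein known from neurons and mesothelium, was not well above background on any heart array and was at least 33.7-fold lower (log2 -6.75 ± 0.43, adjusted p = 1.3e-06). Upk1b, a uroplakin, was lower (log2 -5.65, adjusted p = 0.0006, low-background log2 -7.03, at least 75.4-fold) and was well above background within heart only on heart 1. Upk3b (log2 -3.83 and low-background -4.40), Msln, which encodes mesothelin (log2 -4.98 and low-background -5.59), and Lrrn4 (log2 -3.84 ± 0.67, adjusted p = 0.003, low-background log2 -4.27) were lower together with the keratin gene Krt18 (log2 -5.65, adjusted p = 0.00023, low-background log2 -6.65). Lrrn4 read -2.61, -4.39 and -2.98 on heart arrays, against -0.95, 0.13 and -1.04 on gonad, 2.05, -1.13 and -0.23 on liver and 2.49 and 1.37 on lung arrays. Krt8 (log2 -4.72 and low-background -5.84, at least 41.1-fold) was lost in 2 of 26 alternatives, namely the 11-array fit and the value table, and Bnc1, basonuclin, was lower (log2 -4.57 and low-background -5.73, at least 12.5-fold). Aldh1a2, the retinoic acid enzyme of the epicardium, was not among them: it differed by 1.08 and did not pass (low-background 1.78, adjusted p = 0.0017).

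Tcf21, the epicardial lineage factor, was the member of that list that was higher in heart. It read 2.40, 4.63 and 4.30 on heart arrays 1, 2 and 3, against 1.62, 1.25 and 0.65 on gonad arrays 1, 2 and 3, -0.84, -0.15 and 0.32 on liver arrays 1, 2 and 3, and 0.40 and 0.56 on lung arrays 1 and 3. The heart values did not overlap the others (log2 3.30 ± 0.53, adjusted p = 0.0016, low-background log2 3.90). Against the organs singly it differed by 2.60 against gonad, 4.0 against liver and 3.30 against lung. Of 18 regulators of heart development, 2 were higher and 3 lower (median 0.06; low-background counts 4 and 3, median -0.11). Tbx20, a T-box factor of heart formation, read 1.53, 2.75 and 2.72 on heart arrays, against -5.88, -4.82 and -0.42 on gonad, -3.41, -2.48 and -1.50 on liver and -3.36 and -4.02 on lung arrays (log2 5.62 ± 0.87, adjusted p = 0.0012, low-background log2 6.57). On gonad 3, a high-background array, it read nearest to heart. Nkx2-5, a cardiac homeobox factor, read -1.97, -2.03 and -1.71 on heart arrays, against -5.07, -4.44 and -3.37 on gonad, -3.21, -2.45 and -3.59 on liver and -4.45 and -5.72 on lung arrays (log2 2.25 ± 0.44, adjusted p = 0.0061), a low level in every organ. The Nkx2-5 call was lost in 2 of 26 alternatives, namely normexp and quantile normalization. Gata4, Hand1, Isl1 and Tbx5 had differences of 0.65, 0.84, -0.17 and 0.23 and did not pass.

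The regulators lower in heart were Tbx1, Tbx3 and Osr1. Tbx1, a factor of pharyngeal and outflow tract development, read -3.43, -4.87 and -6.55 on heart arrays, against 2.12, 1.99 and 1.81 on gonad, -0.12, 3.58 and 1.37 on liver and -0.39 and -1.77 on lung arrays (log2 -5.78, adjusted p = 0.00018, low-background log2 -6.57, at least 41.3-fold). Tbx3 read -2.61 to -1.77 on heart arrays, against -0.19 to 2.39 on the 8 others (log2 -3.50, adjusted p = 8.6e-06, low-background log2 -3.76). The Tbx3 call was lost in 1 of 27 alternatives, namely the value table. Osr1 was lower (log2 -1.30 and low-background -0.97). The Osr1 call was lost in 8 of 27 alternatives, among them without heart 1 or lung 3 (log2 -1.25 to -0.90, adjusted p = 0.025 to 0.054).

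Of 21 fibroblast identity genes, 3 were higher and 0 lower (median 0.48; low-background counts 7 and 0, median 0.80). Besides Tcf21 these were Lum and Dpt, which encode the collagen-binding matrix proteins lumican and dermatopontin. Lum read 2.26, 4.36 and 4.71 on heart arrays, against -3.37, -1.28 and -2.60 on gonad, 1.05, 4.43 and 3.12 on liver and 1.49 and 0.14 on lung arrays. Heart overlapped liver, with differences of 6.20 against gonad, 0.91 against liver and 2.96 against lung. The mean difference was log2 3.36 ± 0.71, adjusted p = 0.011 (low-background log2 4.08). The Lum call was lost in 4 of 27 alternatives, among them without heart 2 or heart 3 (log2 2.89 to 3.06, adjusted p = 0.057 to 0.066). Dpt read 0.00 to 1.82 on heart arrays, against -7.04 to -1.18 on the 8 others (log2 4.63, adjusted p = 0.013, low-background log2 5.55). The Dpt call was lost in 4 of 26 alternatives, among them without heart 2 or heart 3 (log2 4.32 to 4.34, adjusted p = 0.062 to 0.063). Postn and Dcn differed by 1.42 and 1.33 and did not pass, with low-background values of 2.26 (adjusted p = 0.00074) and 2.01 (adjusted p = 0.015).

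Some genes of cartilage matrix were higher. Col2a1, the main collagen of cartilage, read 1.73, 4.29 and 4.55 on heart arrays 1, 2 and 3, against -2.36, -2.91 and -3.16 on gonad arrays 1, 2 and 3, -2.11, -3.63 and -1.15 on liver arrays 1, 2 and 3, and -0.67 and -1.95 on lung arrays 1 and 3. Every heart array was above every other (log2 5.66 ± 0.63, adjusted p = 0.0001, low-background log2 6.50). Sox9, the factor that drives cartilage genes, was higher (log2 2.65, adjusted p = 0.0041, low-background log2 3.39), though heart 1 at 0.73 lay below gonad 1 at 0.76. The Sox9 call was lost in 1 of 27 alternatives, namely the 11-array fit. Over 20 cartilage and tendon genes, 3 were higher and 2 lower (median 0.58; low-background counts 3 and 1, median 0.13), and Acan, the main cartilage proteoglycan, differed by -0.15 and did not pass. Comp was higher (log2 2.35, adjusted p = 0.042, low-background log2 2.83). The Comp call was lost in 12 of 27 alternatives, among them without gonad 1, gonad 2, heart 2, heart 3, liver 1, liver 2 or lung 3 (log2 2.06 to 2.33, adjusted p = 0.056 to 0.12). The lower members were Mkx, a tendon factor (log2 -1.82, adjusted p = 0.05, low-background log2 -0.99), and Sox5 (log2 -1.12, adjusted p = 0.029, low-background log2 -0.87). The Mkx call was lost in 22 of 26 alternatives, among them without gonad 1, gonad 2, heart 1, liver 1, liver 2, liver 3, lung 1 or lung 3 (log2 -1.88 to -0.93, adjusted p = 0.064 to 0.12). The Sox5 call was lost in 18 of 27 alternatives, among them without gonad 1, gonad 2, heart 1, heart 3, liver 2, liver 3, lung 1 or lung 3 (log2 -1.23 to -0.82, adjusted p = 0.051 to 0.084), and its probes disagreed, from -1.12 to 1.83.

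Of 34 collagens 3 were higher and 2 lower, with a median of -0.21 (0.10 in the low-background fit). Besides Col2a1, the higher ones were Col9a2, another cartilage collagen (log2 2.38, adjusted p = 0.0089, low-background log2 2.25), and Col14a1 (log2 2.05, adjusted p = 0.017, low-background log2 2.79), which differed by 5.01 against gonad, 0.24 against liver and 0.88 against lung. The Col9a2 call was lost in 3 of 26 alternatives, namely normexp, the 11-array fit and 13 arrays with normexp. The Col14a1 call was lost in 5 of 27 alternatives, among them without heart 2, heart 3 or lung 1 (log2 1.62 to 1.93, adjusted p = 0.052 to 0.094). Col6a3, a chain of the microfibrillar collagen VI, was lower, at 0.73, 3.01 and 3.23 on heart arrays, against 5.74, 5.66 and 5.52 on gonad, 5.22, 5.91 and 6.57 on liver and 5.05 and 5.30 on lung arrays (log2 -3.25 ± 0.46, adjusted p = 0.00062, low-background log2 -2.47). Col18a1 was lower (log2 -1.66, adjusted p = 0.038, low-background log2 -1.27). The Col18a1 call was lost in 11 of 27 alternatives, among them without gonad 1, gonad 2, heart 1, heart 3, lung 1 or lung 3 (log2 -1.86 to -1.19, adjusted p = 0.059 to 0.14).

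Of 15 small leucine-rich proteoglycans, 5 were higher and 0 lower (median 1.25; low-background counts 7 and 1, median 0.54). Besides Lum these were Epyc, Nyx, Aspn and Omd, which encode epiphycan, nyctalopin, asporin and osteomodulin. Epyc was at least 7.06-fold higher (log2 3.93, adjusted p = 0.00089), and at least 5.04-fold in the low-background fit. Nyx was at least 4.91-fold higher (log2 3.38, adjusted p = 0.028). The Nyx call was lost in 8 of 26 alternatives, among them without gonad 2, heart 1, heart 2, lung 1 or lung 3 (log2 2.71 to 3.44, adjusted p = 0.053 to 0.12). Aspn was higher (log2 2.29, adjusted p = 0.0057, low-background log2 2.91), and Omd (log2 2.19, adjusted p = 0.0095, low-background log2 2.40). The Aspn call was lost in 2 of 27 alternatives, namely normexp and quantile normalization. The Omd call was lost in 4 of 27 alternatives, among them without heart 3 (log2 1.98, adjusted p = 0.054). With normexp Omd differed by log2 0.73 (adjusted p = 0.24) and with quantile normalization by log2 1.07 (adjusted p = 0.35).

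**Figure D4:**
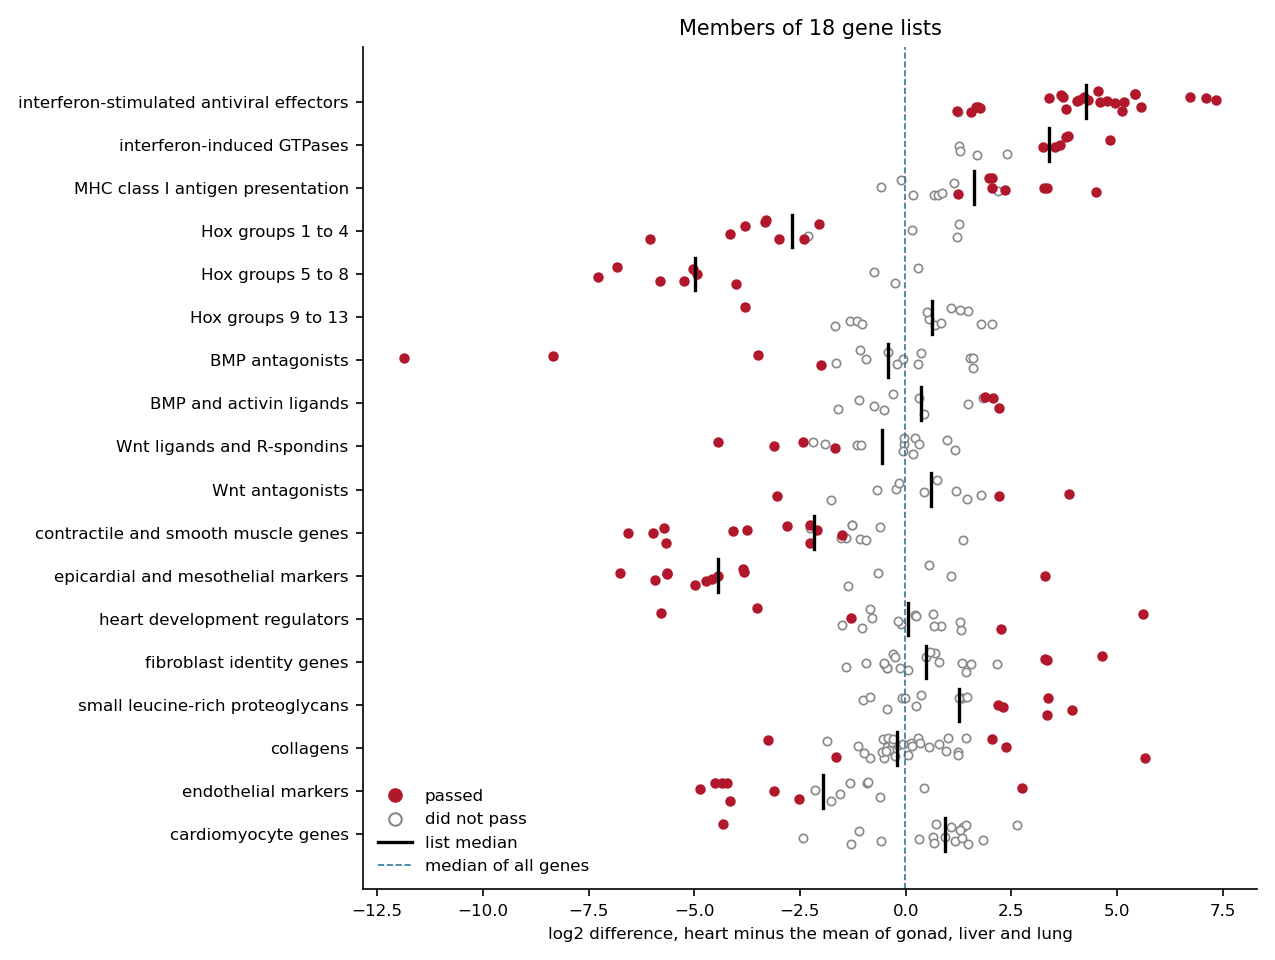
Log2 difference, heart minus the mean of gonad, liver and lung (horizontal axis), of the measured members of 18 gene lists (rows). Filled points passed, open points did not, black bars are list medians and the dashed line is the median of all genes, -0.02. The antiviral effectors lie to the right of it with a median of 4.26. Most of the Hox groups 5 to 8, contractile genes and mesothelial markers lie to the left, with medians of -4.98, -2.17 and -4.43.

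Among chemokines and cytokines, 4 of 29 measured members were higher and 4 lower (median 0.66; low-background counts 6 and 4, median 0.47). Cxcl5, which attracts neutrophils, read 2.87, 5.52 and 5.61 on heart arrays 1, 2 and 3, against -7.48, -6.73 and -4.32 on gonad arrays 1, 2 and 3, -4.82, 1.80 and -1.50 on liver arrays 1, 2 and 3, and 1.05 and -1.79 on lung arrays 1 and 3. Heart arrays were above all others, though liver 2 reached 1.80 (log2 7.35 ± 1.14, adjusted p = 0.0012, low-background log2 8.55, at least 248-fold). Cxcl1, of the same family, was higher (log2 2.84, adjusted p = 0.022, low-background log2 3.53). The Cxcl1 call was lost in 5 of 27 alternatives, among them without heart 2, heart 3 or lung 3 (log2 2.56 to 2.63, adjusted p = 0.063 to 0.092). The interferon-inducible chemokines Cxcl10 (log2 3.43, adjusted p = 0.0032, low-background log2 4.36) and Ccl5 (log2 2.70, adjusted p = 0.0011, low-background log2 3.40) were higher. Cxcl9, also interferon-inducible, differed by 0.89 and did not pass.

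The lower members were Il1rl1, Cxcl12, Il11 and Cxcl14. Il1rl1, the interleukin-33 receptor, was not well above background on any heart array and was at least 4.82-fold lower (log2 -4.40, adjusted p = 1.3e-05), with differences of -2.93 against gonad, -3.30 against liver and -6.97 against lung, while another of its probes gave 1.17. Cxcl12, a stromal chemokine for blood progenitors, was lower (log2 -2.44, adjusted p = 0.0053, low-background log2 -1.86). The Cxcl12 call was lost in 1 of 27 alternatives, namely the 11-array fit. Il11, a cytokine of fibrosis, was lower (log2 -2.20, adjusted p = 0.0073, low-background log2 -1.88). The Il11 call was lost in 2 of 27 alternatives, namely the 11-array fit and the 9-array fit. Cxcl14 was lower (log2 -2.12, adjusted p = 0.025, low-background log2 -1.53), with differences of -6.08 against gonad, 0.49 against liver and -0.77 against lung, so gonad alone stood far from heart. The Cxcl14 call was lost in 6 of 27 alternatives, among them without heart 1 or lung 1 (log2 -1.94 to -1.43, adjusted p = 0.075 to 0.091).

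In the complement list, 3 of 20 measured members were higher and 1 lower (low-background counts 6 and 2, medians 0.05 and 0.54). Against the organs singly, the higher calls were 4 for gonad, 0 for liver and 0 for lung, beside 1.47%, 1.21% and 0.883% of all genes. For no member did all heart arrays lie above all the others. As this held for only 1.41% of all genes, 0 of 20 says little about the list. Cfi, the protease that inactivates C3b and C4b, was higher (log2 2.79, adjusted p = 0.018, low-background log2 3.47). The Cfi call was lost in 7 of 27 alternatives, among them without heart 2, heart 3 or lung 3 (log2 2.46 to 2.57, adjusted p = 0.054 to 0.084). With normexp Cfi differed by log2 1.06 (adjusted p = 0.21) and with quantile normalization by log2 1.56 (adjusted p = 0.32). C4b itself was higher (log2 2.22, adjusted p = 0.034, low-background log2 2.93), 4.37 against gonad, 2.0 against liver and 0.29 against lung. The C4b call was lost in 10 of 27 alternatives, among them without gonad 1, gonad 2, heart 2, heart 3, liver 3, lung 1 or lung 3 (log2 1.85 to 2.28, adjusted p = 0.056 to 0.12). Serping1, the C1 inhibitor, was higher (log2 1.77, adjusted p = 0.034, low-background log2 2.47). The Serping1 call was lost in 10 of 27 alternatives, among them without gonad 1, gonad 2, heart 2, heart 3, liver 3, lung 1 or lung 3 (log2 1.35 to 1.86, adjusted p = 0.055 to 0.12). Cd59a, which blocks the membrane attack complex, was lower (log2 -1.24, adjusted p = 0.021, low-background log2 -1.08). The Cd59a call was lost in 7 of 27 alternatives, among them without heart 1, heart 3, lung 1 or lung 3 (log2 -1.30 to -0.98, adjusted p = 0.044 to 0.055).

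Other genes with the largest non-overlapping differences fall outside the lists. Cck, the gene of the peptide cholecystokinin, read -2.77, -2.63 and -2.20 on heart arrays, against 6.01, 6.21 and 5.00 on gonad, 5.10, 4.55 and 2.82 on liver and 7.26 and 6.82 on lung arrays. It was well above background on every heart array and lower (log2 -8.18 ± 0.49, adjusted p = 7.8e-07, low-background log2 -8.19). Cd24a, a surface glycoprotein of progenitor and epithelial cells, read -6.62, -3.10 and -3.32 on heart arrays, against 2.46, 3.20 and 2.50 on gonad, 2.11, 3.33 and 2.90 on liver and 3.60 and 3.51 on lung arrays (log2 -7.37 ± 0.59, adjusted p = 7.2e-06, low-background log2 -6.27). Bves, a membrane protein of muscle and epithelial junctions, and Gabrb1, a subunit of the GABA-A receptor, were well above background within heart only on heart 1. In the low-background fit Bves was at least 51-fold and Gabrb1 at least 51-fold lower (log2 -7.85 and -7.69). Pdlim4, an actin-binding adaptor, was lower (log2 -6.63, adjusted p = 2.4e-06, low-background log2 -6.62), and so was Angptl7, a secreted angiopoietin-like protein (log2 -6.48, adjusted p = 0.00066, low-background log2 -7.44, at least 107-fold).

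On the higher side, Olfml1, a secreted olfactomedin-like protein, read -0.38, 1.24 and 1.30 on heart arrays, against -7.45, -7.28 and -2.37 on gonad, -7.00, -4.97 and -6.12 on liver and -4.13 and -3.26 on lung arrays (log2 5.86 ± 0.87, adjusted p = 0.0009, low-background log2 6.97, at least 77.5-fold). Wfdc18, a small secreted protein, read 0.95 to 2.84 on heart arrays, against -6.24 to -0.85 on the 8 others (log2 5.61, adjusted p = 3.9e-05, low-background log2 6.28), with the largest single difference against liver (7.33). Phf11b, a zinc finger gene with close copies whose probes may share signal, read 0.28 to 2.34 on heart arrays, against -5.64 to -2.44 on the 8 others (log2 5.55, adjusted p = 0.0001, low-background log2 6.35, at least 77.9-fold).

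Markers of other cells that such cultures could hold were read in the same way. Endothelial markers were lower in heart than in gonad and liver: of 16, 7 were lower and 1 higher (median -1.96; low-background counts 1 and 8, median -2.46). Their summed signal was 16.8, 44.3 and 40.3 on heart arrays 1, 2 and 3, against 58.2 to 203 on gonad, 98.7 to 338 on liver and 21.7 to 37 on lung arrays. Against the organs singly the lower calls were 7 for gonad, 7 for liver and 0 for lung, beside 3.16%, 2.8% and 1.98% of all genes. Cdh5, the cadherin of endothelial junctions, read -2.77, -4.05 and -5.14 on heart arrays, against 1.34, 1.98 and 1.82 on gonad, 0.87, 2.69 and 1.25 on liver and -1.38 and -4.28 on lung arrays (log2 -4.15, adjusted p = 0.00088, low-background log2 -4.74). Emcn (log2 -4.87, adjusted p = 0.001, low-background log2 -6.04, at least 55.7-fold), Plvap (log2 -4.50, adjusted p = 0.0003, low-background log2 -4.31) and Robo4 (log2 -4.34, adjusted p = 0.0047, low-background log2 -3.87) were lower, and so was Tie1 (log2 -4.22, adjusted p = 0.025, low-background log2 -5.47, at least 11.9-fold). The Robo4 call was lost in 1 of 27 alternatives, namely the 9-array fit. The Tie1 call was lost in 6 of 26 alternatives, among them without heart 2, heart 3 or lung 1 (log2 -3.83 to -3.30, adjusted p = 0.071 to 0.12). Pecam1 differed by -0.91 and did not pass. The angiopoietin receptor gene Tek went the other way (log2 2.76, adjusted p = 0.0031, low-background log2 3.03). How far the number of endothelial cells in the gonad and liver cultures bears on the other differences was not tested.

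Cardiomyocyte genes did not set the heart cultures apart as a list. Of 19, 0 were higher and 1 lower (median 0.94; low-background counts 1 and 3, median 0.03). Their summed signal was 16.7, 22.4 and 17.8 on heart arrays 1, 2 and 3, against 12.4 to 20.8 on gonad, 6.9 to 37.1 on liver and 10.5 to 15.9 on lung arrays. Actc1, cardiac actin, read -7.08, -6.40 and -6.67 on heart arrays, against 0.96, 0.84 and -0.36 on gonad, -5.75, -3.72 and -5.12 on liver and -2.34 and -3.23 on lung arrays. It was well above background on no heart array and on only 1 of the 3 liver arrays, and was at least 4.73-fold lower (log2 -4.33, adjusted p = 9.3e-05). The fitted difference was -7.20 against gonad, -1.85 against liver and -3.93 against lung, and it did not pass against liver (adjusted p = 0.11). The sarcomere genes Myh6, Tnnt2, Tnni3 and Myl2 had differences of 0.94, -0.58, 1.18 and 1.32 and low-background values of -0.22, -0.32, 0.31 and 0.62, and none passed. The genes called in the low-background fit besides Actc1, named after their values were seen, were Myl4, an atrial myosin light chain, higher (log2 1.96), and Nppa and Nppb, the natriuretic peptide genes, lower (log2 -1.85 and -3.67, at least 2.42 and 9.06-fold).

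Macrophage and leukocyte markers gave 0 higher and 1 lower of 15 (median -0.88, low-background -1.03). Their summed signal was 11.3, 21.2 and 31.3 on heart arrays 1, 2 and 3, against 32.7 to 65.2 on gonad, 43.7 to 65.4 on liver and 30.8 to 35 on lung arrays. Ptprc, Adgre1 and Csf1r differed by 1.09, -1.25 and -1.17, with low-background values of 0.39, -2.11 (at least 1.54-fold) and -0.73, and did not pass. The Cd14 difference (log2 -1.62, adjusted p = 0.041, low-background log2 -1.78) was lost in 13 of 27 alternatives, among them without gonad 2, heart 2, heart 3, liver 1, liver 2, lung 1 or lung 3 (log2 -1.76 to -1.39, adjusted p = 0.052 to 0.13). The part of leukocytes in the interferon result was not tested. Of 11 mural cell markers 1 was higher and 2 lower (medians 0.01 and 0.48). The list summed to 17.8, 57.2 and 68.1 on heart arrays 1, 2 and 3, against 52.5 to 75.6 on gonad, 45.5 to 65.8 on liver and 42.7 to 52.8 on lung arrays. Cspg4, a proteoglycan of pericytes, was lower at -1.42, -1.13 and -2.03 on heart arrays, against 4.12, 4.43 and 3.48 on gonad, 2.28, 1.91 and 3.32 on liver and 2.22 and 2.43 on lung arrays (log2 -4.47, adjusted p = 5.8e-06, low-background log2 -4.62). Rgs5 differed by 0.36 and did not pass. The peptidase gene Anpep was higher (log2 1.59, adjusted p = 0.017, low-background log2 1.99). The Anpep call was lost in 4 of 27 alternatives, among them without heart 2, heart 3 or lung 1 (log2 1.37 to 1.52, adjusted p = 0.05 to 0.084).

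Genes of the comparison organs' parenchyma gave few calls. Of 12 hepatocyte genes 0 passed in limma, and Alb, Apoa1 and Ttr differed by 1.42, 1.62 and 1.11 with low-background values of 0.20, 0.68 and -0.13. Their summed signal was 8.32, 2.87 and 3.52 on heart arrays 1, 2 and 3, against 2.28 to 5.85 on gonad, 2.32 to 3.29 on liver and 2.52 to 2.55 on lung arrays. Of 12 lung epithelial genes 1 was lower, the water channel gene Aqp5 (log2 -3.50, adjusted p = 0.0057, low-background log2 -4.17), with its highest value on liver 1 at 3.07, and Sftpc, Epcam and Scgb1a1 did not pass. The list's summed signal was 9.07, 0.642 and 0.444 on heart arrays 1, 2 and 3, against 1.3 to 5.01 on gonad, 1.3 to 9.05 on liver and 1.41 to 2.58 on lung arrays. Of 13 regulators of lung mesenchyme 1 was lower, Foxf2 (log2 -3.06, adjusted p = 0.00018, low-background log2 -2.67), and 6 in the low-background fit, among them Fgf10, which signals to the lung epithelium (log2 -3.51, at least 2.79-fold). Of 11 hepatic stellate cell genes, Ngfr, the low-affinity neurotrophin receptor, was higher (log2 3.34, adjusted p = 0.0059, low-background log2 3.85). Its call was lost in 3 of 26 alternatives, namely normexp, quantile normalization and the 11-array fit. Des, also on that list, was lower as above.

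Of 19 gonad somatic and steroid genes 2 were higher and 3 lower (median -0.77; low-background counts 2 and 7). Their summed signal was 33.7, 136 and 137 on heart arrays 1, 2 and 3, against 102 to 251 on gonad, 105 to 199 on liver and 108 to 124 on lung arrays. Amhr2, the receptor of anti-Müllerian hormone, was lower (log2 -3.50, adjusted p = 0.0055, low-background log2 -4.19), with differences of -6.28 against gonad, -2.83 against liver and -1.40 against lung. The Amhr2 call was lost in 2 of 27 alternatives, namely the 11-array fit and pooling the 8 other arrays. Nr5a1 and Cyp11a1 differed by -1.36 and -0.77 and did not pass. The largest differences on this list either way were those of Sox9 (log2 2.65) and Wt1 (log2 -5.93), described above and not separate results. Of 9 Schwann cell and neural genes 2 were higher and 1 lower. The list summed to 2.44, 2.08 and 1.91 on heart arrays 1, 2 and 3, against 5.56 to 13.3 on gonad, 2.43 to 4.85 on liver and 3.18 to 5.76 on lung arrays. Cdh19, a cadherin of Schwann cell precursors, was at least 7.31-fold higher (log2 4.24, adjusted p = 0.0054). Its call was lost in 1 of 26 alternatives, namely the 11-array fit. Sox10 differed by 0.00 and did not pass. Mbp was lower (log2 -2.78, adjusted p = 0.00071, low-background log2 -2.50), but its probes ran from -2.78 to 1.45 and the call was lost in 1 of 27 alternatives, namely the mean of probes.

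**Figure D5:**
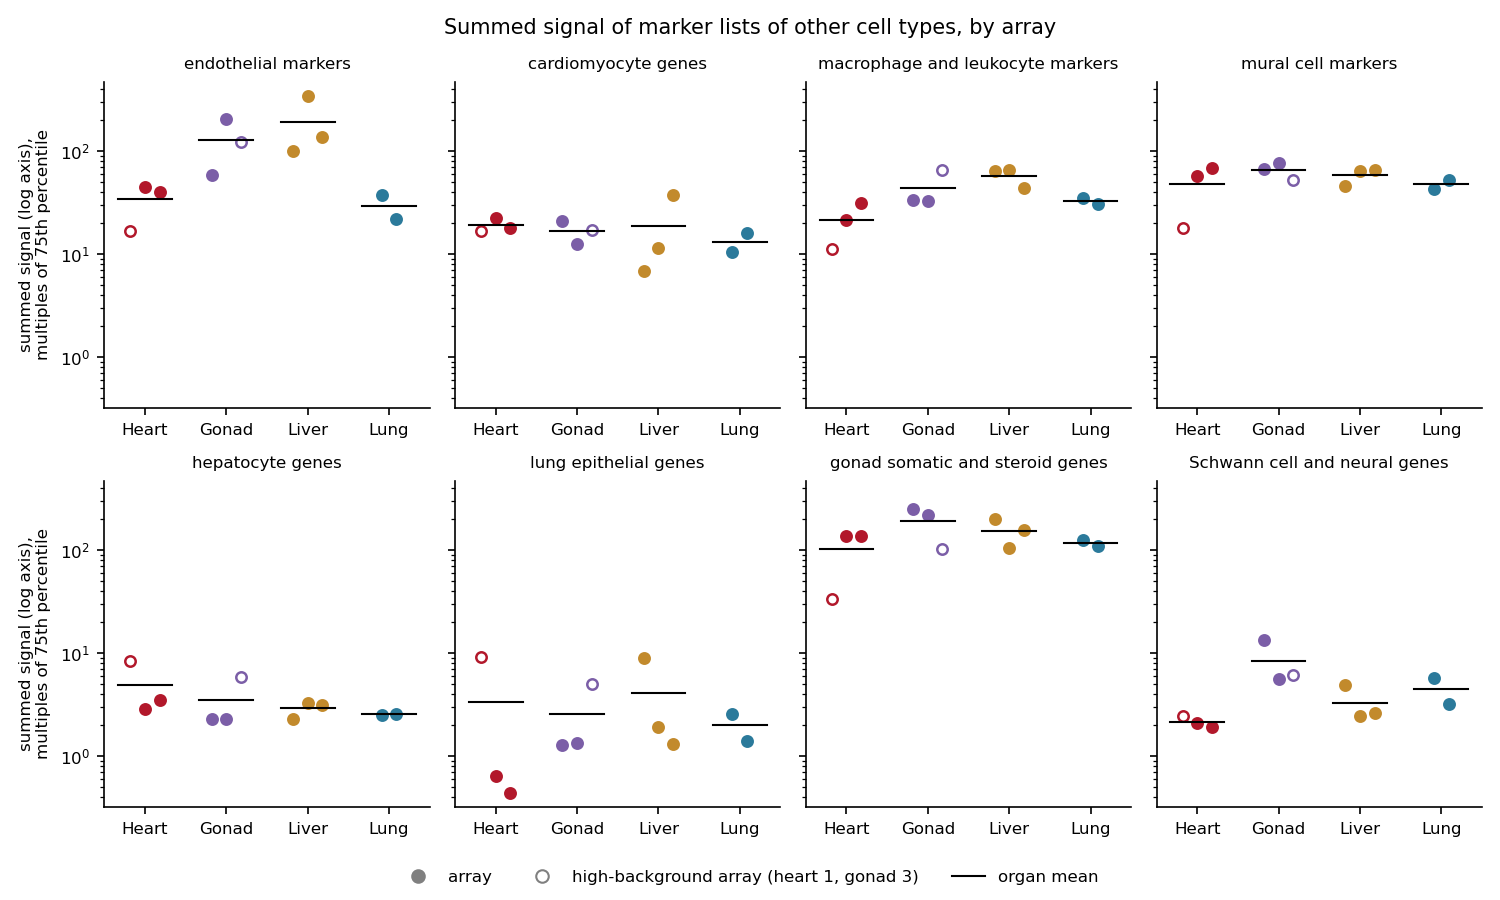
Summed signal of 8 marker lists of other cell types (vertical log axis, in multiples of the array's 75th percentile), by organ, with 1 point per array and a line at the organ mean. Open points are heart 1 and gonad 3. Endothelial markers sum to 16.8 to 44.3 on heart arrays and up to 338 on liver arrays, and hepatocyte genes 8.32 at most, on heart 1.

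The remaining lists held few calls. In the insulin-like growth factor axis, 0 of 11 measured members were higher and 3 lower (median -0.32; low-background counts 2 and 2). Igfbp6 read 1.46, 3.05 and 3.26 on heart arrays, against 5.63, 6.01 and 5.29 on gonad, 5.78, 5.37 and 5.52 on liver and 6.62 and 6.70 on lung arrays (log2 -3.36, adjusted p = 0.00026, low-background log2 -2.86). Igfbp3, the main carrier of the growth factors in blood, was lower (log2 -2.50, adjusted p = 0.0037, low-background log2 -2.56). The Igfbp2 difference (log2 -2.54, adjusted p = 0.047, low-background log2 -2.32) was lost in 18 of 27 alternatives, among them without gonad 1, gonad 2, heart 1, heart 2, heart 3, lung 1 or lung 3 (log2 -2.97 to -2.19, adjusted p = 0.053 to 0.15). Among 20 cell cycle genes 0 were higher and 2 lower (medians 0.10 and 0.69). These were the cyclin-dependent kinase inhibitors Cdkn2a (log2 -2.34, adjusted p = 0.00091, low-background log2 -2.16) and Cdkn2b (log2 -2.38, adjusted p = 0.0033, low-background log2 -1.93), neighbours on the genome that rise as cultured cells age. Cdkn2a read 0.75, 1.77 and 1.12 on heart arrays, against 4.49, 4.15 and 3.87 on gonad, 4.66, 3.06 and 3.35 on liver and 2.83 and 2.79 on lung arrays, with no overlap. Proliferation genes such as Mki67 and Top2a differed by -0.15 and 0.12 and did not pass with heart 1 included. The cell cycle list as a whole depended on heart 1. Its median was 1.48, 3.74 and 3.91 on heart arrays 1, 2 and 3, against 2.53 to 3.57 on the 8 others. In the low-background fit 2 members were higher and 2 lower, and without heart 1 alone 4 were higher.

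Of 22 matrix proteases and inhibitors, 0 were higher and 1 lower, and 4 and 1 in the low-background fit. The lower one was Mmp11 (log2 -1.81, adjusted p = 0.0059, low-background log2 -1.24). Its call was lost in 2 of 27 alternatives, namely the 11-array fit and pooling the 8 other arrays. Mmp3, at log2 2.85, passed only in the low-background fit (log2 3.87, adjusted p = 0.047). Of 15 retinoid genes 1 was higher and 1 lower. Rdh10, which makes retinal, was lower (log2 -1.78, adjusted p = 0.0015, low-background log2 -1.68). The Rdh10 call was lost in 3 of 27 alternatives, namely normexp, quantile normalization and 13 arrays with normexp. The Crabp1 difference (log2 2.09, adjusted p = 0.049, low-background log2 2.25) was lost in 18 of 26 alternatives, among them without gonad 1, gonad 2, heart 1, heart 2, heart 3, liver 2, liver 3, lung 1 or lung 3 (log2 1.88 to 2.31, adjusted p = 0.058 to 0.11). Of 5 sex-linked genes and 4 blood genes 0 passed in limma.

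Set against each organ singly, in comparisons that share the heart arrays, 289 genes were higher and 623 lower than in gonad (1.47% and 3.16%). The counts were 238 and 551 against liver (1.21% and 2.8%) and 174 and 391 against lung (0.883% and 1.98%), where 2 arrays limit the precision. For the antiviral effectors the median difference was 4.39 against gonad, 4.36 against liver and 4.17 against lung. For Hox groups 5 to 8 it was -4.02, -4.01 and -4.98 in the same order, for contractile genes -2.34, -2.11 and -1.73, and for mesothelial markers -3.25, -4.23 and -5.26.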

How the data were processed

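RNA from 19 fibroblast cultures was hybridised to 1-colour arrays of 62976 spots. The intensity values deposited by the authors were made with Agilent Feature Extraction 11.0.1.1, which subtracted background and detrended each array, per the file headers, which name build mm9. Detection and outlier flags come from the same deposited output. The 19-column value table deposited by the authors equals the raw median intensity on the 18 arrays with scanner output and was used as an alternative.

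For this work, each array's log2 processed intensities were set relative to their 75th percentile, without control spots and outlier-flagged spots. Of 20656 genes with a probe, 463 were dim and 480 had no complete probe, which left 19713. Each gene took its brightest complete probe, well above background on at least 2 arrays. The number of arrays limits the precision. The fit (limma 3.58.1, R 4.3.3) had 7 organ means over 18 arrays, with 11 residual degrees of freedom and Benjamini-Hochberg adjustment, and was tested on simulated data. Alternatives covered background correction (normexp, offset 50), normalization, dim filters, probes, arrays, blocks, variance model, values and thresholds.

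Named genes are the 12 largest non-overlapping differences each way, up to 4 passing members per list, given markers, and members that did not pass, with values. Further passing members were chosen after their values were seen. The samples and all 36 lists, of which 545 genes were measured, were chosen with earlier results of these data known. Promoters are RefSeq windows of build GRCm38.p6. Kidney and surface-site arrays entered only the estimate of spread. Some genes that the naming rule would take are not reported here.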

Additional observations from a re-analysis of the deposited data

How the results depend on the processing

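The counts moved most with the arrays that entered. Fitted to the 11 arrays alone, 138 genes were higher and 343 lower in heart, and 375, 305 and 143 differed either way from gonad, liver and lung. Without heart 1 and gonad 3, 765 were higher, and 2371, 1476 and 1258 differed from gonad, liver and lung. Without all 5 high-background arrays of the series 790 were higher, with 2516, 1473 and 1256, and with normexp added 519, with 1581, 1198 and 1087. On the 9 low-background arrays of the comparison, an alternative chosen after seeing the data, 672 were higher, and 2115 and 947 differed from gonad and lung. With the value table, which holds lung 2, 922 differed from lung. At adjusted p under 0.01, 182 were higher and 447 lower, and at log2 of at least 2, 411 were lower. Leaving out 1 array gave 247 (without heart 2) to 762 (without gonad 3) higher and 583 (without lung 1) to 879 (without gonad 3) lower. The ranges were 558 (without gonad 1) to 1859 (without heart 1) for gonad, 558 (without liver 1) to 1182 (without heart 1) for liver, and 162 (without lung 1) to 985 (without heart 1) for lung. Other alternatives stayed within 1.5 times. The cause was not tested.

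With the replicate block, 293 genes were higher and 700 lower, and 804, 683 and 428 differed from gonad, liver and lung. Deviations of same-numbered arrays correlated at -0.85 to 0.78 over 15 pairs, and of differently numbered arrays at -0.84 to 0.90 over 30, so the numbers were not taken to pair the samples.

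The alternatives were counted for 167 genes, the named genes together with all passing list members, some of which are not named here. Of the 167, 98 passed in the same direction under all of up to 27 alternatives, and 42 lost their call when 1 array was left out. The most calls were lost in the 11-array fit, 56 of the 167. Leaving out a single array lost at most 34, without heart 3. Sox5 reversed with the mean of its probes (log2 0.35, adjusted p = 0.52). Over the alternatives, antiviral effectors higher ran from 19 to 26, GTPases from 5 to 10, class I genes from 4 to 13, contractile genes lower from 9 to 14, mesothelial markers lower from 5 to 10, and Hox groups 1 to 4 and 5 to 8 lower from 5 to 9 and from 1 to 8. The median kept its sign for 17 lists. It changed sign for 19: the BMP ligand, Hox 9 to 13, Schwann, Wnt antagonist, blood, cardiomyocyte, cartilage, cell cycle, chemokine, collagen, complement, heart development, stellate, insulin-like growth factor, interferon signalling, lung epithelial, mural, retinoid and sex-linked lists.

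On heart 1 most dim genes read higher and most bright ones lower than on heart 2 and 3, so differences of very dim or very bright genes, posterior Hox genes among them, should be read with the low-background values. Where no array of a group was well above background, the change is known only as a lower bound.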
